A study of Mus musculus with 84 samples.

Results

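The genes described here were 9 that encode hepatokines, which are proteins secreted by the liver, or parts of the activin system: Gdf15, Inhbe, Inhbc, Fst, Tsku, Ahsg, Fetub, Lect2 and Enho. They were chosen by gene symbol and not by a threshold on a measured value, but earlier results of these data were known. All 9 were found among the 48794 gene identifiers in the tables, and all 9 passed the filter on low values in liver and in epididymal white adipose tissue (eWAT). Messenger RNA was sequenced in both tissues of male C57BL/6J mice with diet-induced obesity, which had been fed a diet with 60% of its energy as fat, were 22 weeks old at the start and were housed singly. The mice were dosed subcutaneously once daily for 30 days with vehicle, with BI 456906 or with semaglutide. Semaglutide was given at 20 and 100 nmol/kg, and the 4 doses of BI 456906 were 3, 10, 20 and 30 nmol/kg. BI 456906 activates both GCGR, the receptor of glucagon, and GLP-1R, that of glucagon-like peptide-1, while semaglutide activates GLP-1R. All groups, vehicle included, shared the strain, diet and dosing schedule, and 11 mice had been randomised to each. Each of the 7 groups had 6 libraries in each tissue, 42 per tissue, and the labels did not tie liver and eWAT libraries to the same mouse.

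Activins are dimers of inhibin beta subunits and belong to the transforming growth factor-beta (TGF-beta) family; they bind type II receptors, which recruit type I receptors that phosphorylate SMAD proteins. Hepatocytes are the main site of expression of the beta C and beta E subunits, encoded by Inhbc and Inhbe. Follistatin, encoded by Fst, binds activins and keeps them from their receptors, and in mice its release from liver is known to be raised by glucagon relative to insulin. GDF15 is a distant member of the same family that acts on the brainstem receptor GFRAL to lower food intake. Fetuin-A (Ahsg), fetuin-B (Fetub), leukocyte cell-derived chemotaxin 2 (Lect2), adropin (Enho) and tsukushi (Tsku) are secreted proteins that have each been linked to metabolism.

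The loci are given on GRCm38 with GENCODE M21, which annotates all 9 as protein-coding. Inhbe (ENSMUSG00000047492, chr10:127348857-127354411) and Inhbc (ENSMUSG00000025405, chr10:127356322-127370431) lie next to each other on the minus strand, 1910 bases apart. Ahsg (ENSMUSG00000022868, chr16:22891277-22899449) and Fetub (ENSMUSG00000022871, chr16:22918334-22939778) are neighbours on the plus strand, 18884 bases apart. The remaining genes are on the minus strand: Gdf15 (ENSMUSG00000038508, chr8:70629393-70632456), Fst (ENSMUSG00000021765, chr13:114452290-114458951), Tsku (ENSMUSG00000049580, chr7:98350668-98361328), Lect2 (ENSMUSG00000021539, chr13:56542464-56548502) and Enho (ENSMUSG00000028445, chr4:41638144-41640324). The antisense gene Gm47200 spans Inhbe and most of Inhbc, Gm30505 overlaps Ahsg, Gm47040 overlaps Fst, and Gm12406 and Dnaic1 overlap Enho on the other strand. Gm12406 and Dnaic1 had means of 5.81 and 19.4 reads per liver library, and the other antisense genes were not analysed here. The labels name a library kit that does not mark strand and the study's methods name a strand-specific kit, and whether reads were counted by strand is not given in the sources used here. Reads of these genes and of their antisense neighbours therefore cannot be told apart here.

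RefSeq promoter sequences on GRCm38.p6 matched 7 of the 9 genes, and 4 are shown because they belong to the neighbours Ahsg and Fetub, which differed in response, and to Inhbc, which rose, and Lect2, which fell. Each reads 5′ to 3′ on the gene's strand and ends at or before the RefSeq start site, outside annotated exons of these genes. The Ahsg window lies inside the GENCODE gene, which starts at base 22891277, and so is not upstream of that annotated start. Capitals mark a C/EBP-type match, TTGCNNAA on either strand, and no other capitals occur.
Ahsg, chr16:22891765-22892014, plus strand: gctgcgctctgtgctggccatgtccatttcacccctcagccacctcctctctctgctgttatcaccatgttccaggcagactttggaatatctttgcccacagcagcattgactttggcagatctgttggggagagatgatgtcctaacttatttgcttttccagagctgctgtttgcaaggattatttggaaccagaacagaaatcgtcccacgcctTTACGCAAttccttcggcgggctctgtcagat
Fetub, chr16:22918132-22918333, plus strand: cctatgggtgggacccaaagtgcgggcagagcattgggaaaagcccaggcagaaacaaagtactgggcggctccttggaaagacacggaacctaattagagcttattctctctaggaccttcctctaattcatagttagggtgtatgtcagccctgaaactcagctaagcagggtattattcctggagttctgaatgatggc
Inhbc, chr10:127370549-127370798, minus strand: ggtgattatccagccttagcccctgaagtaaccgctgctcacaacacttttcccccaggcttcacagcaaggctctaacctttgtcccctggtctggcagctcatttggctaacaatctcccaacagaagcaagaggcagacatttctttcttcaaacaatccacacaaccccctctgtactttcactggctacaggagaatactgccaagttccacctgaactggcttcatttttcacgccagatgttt
Lect2, chr13:56548539-56548788, minus strand: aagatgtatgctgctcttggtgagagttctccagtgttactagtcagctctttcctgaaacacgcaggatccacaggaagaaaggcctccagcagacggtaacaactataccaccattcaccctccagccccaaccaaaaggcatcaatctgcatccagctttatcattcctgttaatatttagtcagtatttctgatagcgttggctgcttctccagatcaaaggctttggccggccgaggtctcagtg
The 6 motifs searched on both strands were TGACGTCA, the cyclic AMP response element, held by 1.55% of 32851 promoter windows of 250 bases; its shorter part TGACG, which overlaps it, by 17.8%; TGATGNAAN, a C/EBP-ATF element, by 3.44%; the E-box CACGTG by 6.02%; TTGCNNAA by 9.56%; and the TATA box TATAAA by 12.4%. The Ahsg window held TTGCNNAA as TTACGCAA, 32 bases before its end. In windows that are not shown, TGATGNAAN occurred for Inhbe, CACGTG for Gdf15 and TGACG for Fetub. Those of Inhbe and Gdf15 with a match were left out because they overlap annotated exons of these genes. TATAAA occurred for Fetub in the part of its shown window that was cut off for the same reason. These matches describe letters and not bound sites.

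The liver libraries held 21676902 to 53869104 reads and the eWAT libraries 37573004 to 53996914. Levels are given as TPM, the share of each transcript in its library, which is scaled for transcript length, and log2 fold changes (log2FC) come from limma-voom fitted to all genes that passed the filter, 15964 in liver and 18536 in eWAT. Genes whose false discovery rate (FDR), adjusted over the whole table, did not exceed 0.05 were counted as changed. The median log2FC of all genes lay within 0.034 of 0 in every comparison with vehicle. The labelled tissues were checked against their markers. Summed hepatocyte transcripts without Trf, the transferrin gene that fat also expresses, ran from 106863 to 147625 TPM in liver, and summed adipocyte transcripts had a mean of 24908 ± 7913 TPM (SD, n = 6) in vehicle eWAT and 189.8 ± 78.7 TPM in vehicle liver. Libraries are named below by the submitters' numbers.

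In liver, BI 456906 at 30 nmol/kg changed 5 of the 9 genes, where 58.8% of all genes tested changed. Ahsg, Enho, Inhbc and Tsku rose and Lect2 fell, while Gdf15, Inhbe, Fst and Fetub did not pass the test. Enho was the only one of them past a log2FC of 1 in size, as were 12.9% of all genes tested. The number of changed members was 3 at 3 nmol/kg (13.4% of all genes), 3 at 10 nmol/kg (37.5%) and 4 at 20 nmol/kg (45.9%), and 5 changed with the dose slope (58.9%). Semaglutide changed 6 at 20 nmol/kg (46.5%) and 7 at 100 nmol/kg (48.2%). These comparisons share the vehicle libraries. Cell type transcripts moved with the groups as well: at 30 nmol/kg of BI 456906 the mean log2(TPM + 1) was higher by 0.36 for the hepatocyte list, lower for the adipocyte list (-1.11) and lower for the stellate cell list (-0.78), each with an adjusted p of 0.0173 in an exact permutation test over 96 comparisons. On the summed TPM of the same lists none passed, with adjusted exact permutation p of 0.0693, 0.115 and 0.129. The value of 0.0693 was the smallest adjusted p of any test on sums. Its unadjusted exact permutation p was 0.00216, the smallest that 6 against 6 libraries allow. Hepatocyte sums were 118582 to 133762 TPM in vehicle and 136651 to 148007 TPM at 30 nmol/kg, with no overlap. The part of these cell type transcripts in the results was not tested. A bulk level cannot tell fewer cells of a type from less RNA per cell.

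**Figure D1:**
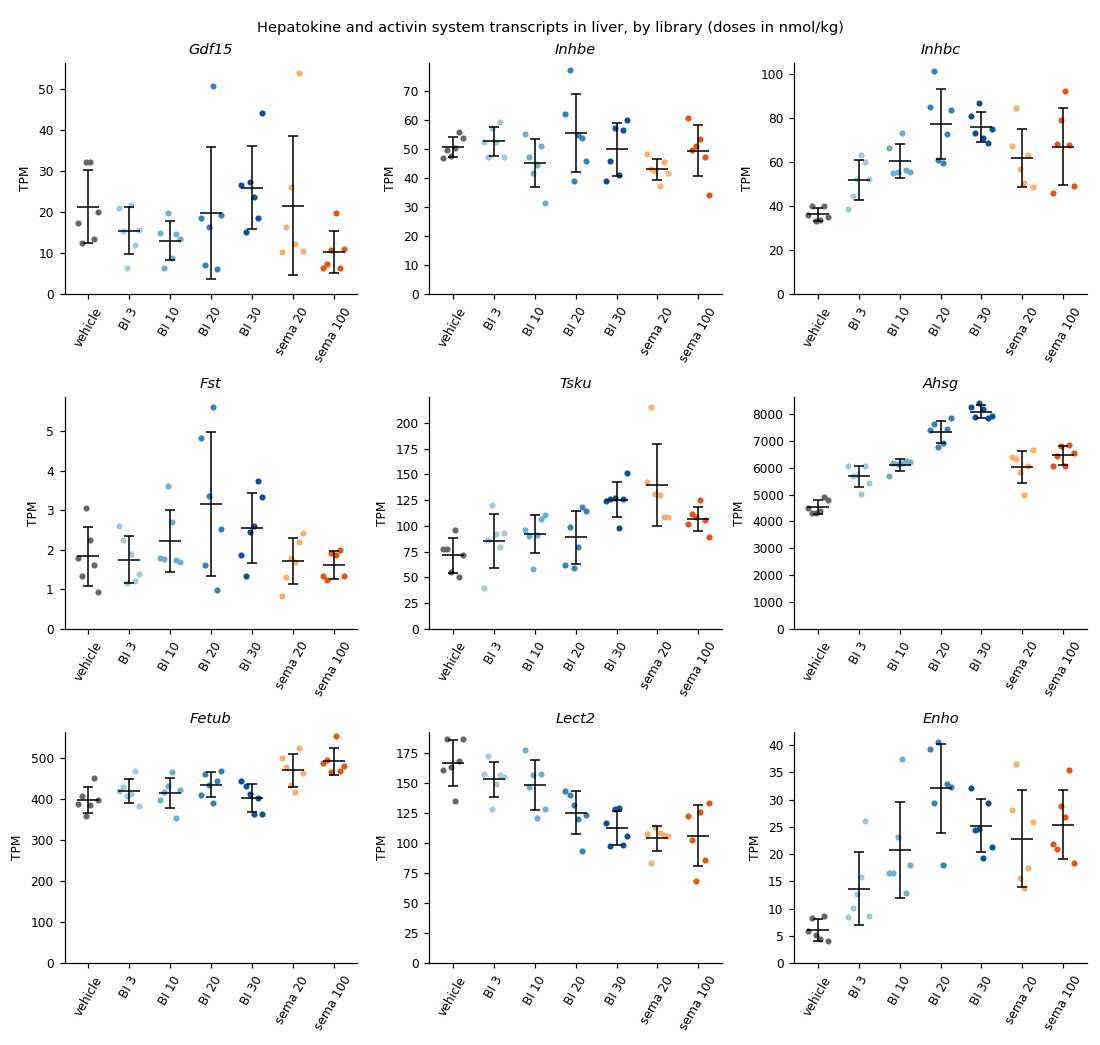
Liver TPM of each of the 9 genes (vertical axes) in each of the 42 libraries (points), by treatment group (horizontal axes), with bars for the group mean and SD (n = 6). The mean of Ahsg went from 4530 TPM in vehicle to 8089 TPM at 30 nmol/kg of BI 456906, and no treated group overlapped vehicle.

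Among the ligands, Inhbc, which encodes the activin beta C subunit, rose at every dose of either compound. Vehicle livers held 33.2 to 39.98 TPM (median 35.6). Livers given BI 456906 held 38.6 to 63.2 TPM (median 52.1) at 3 nmol/kg, 54.9 to 73.2 (55.9) at 10, 59.5 to 101.3 (78.03) at 20 and 68.8 to 86.6 (73.9) at 30 nmol/kg. Livers given semaglutide held 48.6 to 84.4 TPM (median 60.0) at 20 nmol/kg and 46.1 to 92.1 (67.7) at 100 nmol/kg. Every treated group except that given 3 nmol/kg lay wholly above vehicle. By limma-voom the log2FC was 0.98 (SE 0.15, FDR 6.07e-07) at 30 nmol/kg of BI 456906, 0.64 (FDR 0.00054) at 20 nmol/kg of semaglutide and 0.77 (FDR 5.8e-05) at 100 nmol/kg. Over the BI 456906 doses Inhbc rose by a log2FC of 0.30 (SE 0.04) per 10 nmol/kg (limma-voom FDR 1.8e-07). The call at 3 nmol/kg (log2FC 0.44, limma-voom FDR 0.042) was lost without any of vehicle libraries 43, 45, 46 or 48 or of treated libraries 51 to 54, where FDR reached 0.108.

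Inhbe, its neighbour, which encodes the beta E subunit, held 47.1 to 55.95 TPM (median 50.1) in vehicle liver. It held 38.98 to 59.9 TPM (median 51.3) at 30 nmol/kg of BI 456906 and 34.1 to 60.9 (50.4) at 100 nmol/kg of semaglutide, and these ranges took in all of the vehicle range. At 30 nmol/kg of BI 456906 its log2FC was -0.14 with a 95% interval from -0.43 to 0.14 (limma-voom FDR 0.40). Inhbe fell at 20 nmol/kg of semaglutide, where livers held 37.4 to 48.2 TPM (median 42.7) and overlapped vehicle at the edge (log2FC -0.36, SE 0.14, limma-voom FDR 0.0369). This call was lost on log2(TPM + 1) values, where FDR was 0.155, with no filter, with sample quality weights, and without any of libraries 47, 48, 74, 75, 76 or 78.

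The ratio of Inhbe to Inhbc within a library does not depend on library scaling. The mean ratio of their TPM was 1.40 ± 0.11 (SD, n = 6) in vehicle, with Inhbe above Inhbc in each vehicle library, and 0.663 ± 0.13 at 30 nmol/kg of BI 456906, with Inhbc above Inhbe in each. On the log2 scale the mean ratio was 0.48 in vehicle, 0.04 at 3 nmol/kg, -0.43 at 10, -0.48 at 20 and -0.62 at 30 nmol/kg, and it was -0.50 and -0.42 at 20 and 100 nmol/kg of semaglutide. The groups given 10, 20 or 30 nmol/kg of BI 456906 or 20 nmol/kg of semaglutide did not overlap vehicle. Their differences from vehicle of -0.91, -0.97, -1.10 and -0.98 each gave a p of 0.00216 in a two-sided exact permutation test, the smallest that 6 against 6 libraries allow, or 0.00325 adjusted over the 6 comparisons. At 3 nmol/kg of BI 456906 and 100 nmol/kg of semaglutide the differences of -0.44 and -0.90 had an adjusted exact permutation p of 0.00649, and these groups overlapped vehicle.

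**Figure D2:**
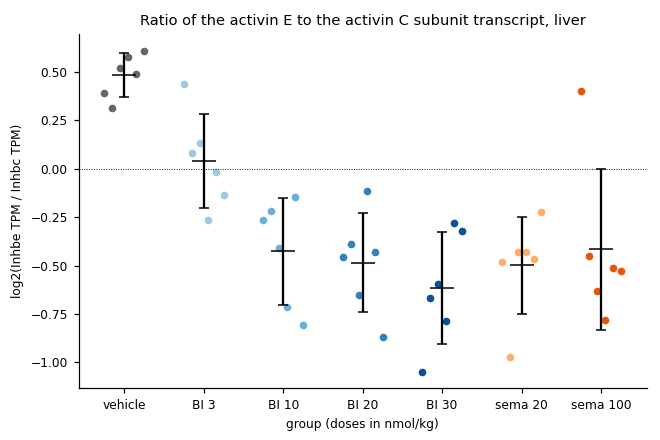
The log2 ratio of Inhbe to Inhbc TPM in liver (vertical axis) in each library (points) by group (horizontal axis), with bars for the group mean and SD (n = 6). The ratio was above 0 in the vehicle libraries, with a mean of 0.48, and below 0 in all libraries given 10, 20 or 30 nmol/kg of BI 456906.

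Gdf15 varied widely among libraries of a group. Vehicle livers held 12.6 to 32.3 TPM (median 18.8) and livers given 30 nmol/kg of BI 456906 held 15.2 to 44.2 (25.3). Those given 100 nmol/kg of semaglutide held 6.46 to 19.8 (9.12). The medians at 3, 10 and 20 nmol/kg of BI 456906 were 15.7, 14.1 and 17.6 TPM, below that of vehicle. Gdf15 fell at 100 nmol/kg of semaglutide (log2FC -1.03, SE 0.42, limma-voom FDR 0.0391), although the groups overlapped, and at no dose of BI 456906 did it pass the test (log2FC 0.35, 95% interval -0.40 to 1.10, at 30 nmol/kg). The fall under semaglutide lost its call with no filter and without any of libraries 45, 46, 48, 79, 80, 81 or 83, with FDR up to 0.0896. In 3 groups a single library stood high: 50.7 TPM at 20 nmol/kg of BI 456906, and 53.9 and 19.8 TPM at 20 and 100 nmol/kg of semaglutide.

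Among the extracellular antagonists, Fst was low in liver, at 0.94 to 3.05 TPM (median 1.71) in vehicle and 1.34 to 3.73 (2.52) at 30 nmol/kg of BI 456906, from 70 to 543 reads per library over all liver libraries. No liver comparison of Fst passed the test, and at 30 nmol/kg the log2FC was 0.43 with a 95% interval from -0.23 to 1.09 (limma-voom FDR 0.259). Its dose slope of 0.19 per 10 nmol/kg had a limma-voom FDR of 0.073. Tsku, whose product tsukushi binds several TGF-beta family ligands, held 50.0 to 95.8 TPM (median 74.6) in vehicle and 97.8 to 151.0 (126.5) at 30 nmol/kg of BI 456906. It held 108.7 to 216.0 TPM (median 130.5) at 20 nmol/kg of semaglutide and 89.4 to 124.8 (107.0) at 100 nmol/kg. The groups given 30 nmol/kg of BI 456906 or 20 nmol/kg of semaglutide lay wholly above vehicle, and the group given 100 nmol/kg of semaglutide overlapped it. Tsku rose at 30 nmol/kg of BI 456906 (log2FC 0.76, SE 0.21, limma-voom FDR 0.00169) but did not pass at 3, 10 or 20 nmol/kg, where the log2FC was 0.21, 0.28 and 0.24. It rose at 20 nmol/kg of semaglutide (log2FC 0.86, limma-voom FDR 0.000795) and at 100 nmol/kg (0.51, FDR 0.0386), and the call at 100 nmol/kg was lost with library size alone or no filter and without any of libraries 45, 47 or 79 to 83, with FDR up to 0.105.

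Ahsg, which encodes fetuin-A, an abundant plasma glycoprotein that binds calcium phosphate and inhibits the insulin receptor in vitro, was the most abundant of the 9 in liver, ranking 30 among all genes in vehicle. Vehicle livers held 4307 to 4904 TPM (median 4436). BI 456906 gave 5039 to 6081 TPM (median 5716) at 3 nmol/kg, 5674 to 6239 (6173) at 10, 6784 to 7847 (7411) at 20 and 7842 to 8409 (8061) at 30 nmol/kg. Semaglutide gave 4987 to 6660 TPM (median 6187) at 20 nmol/kg and 6071 to 6857 (6478) at 100 nmol/kg. No treated group overlapped vehicle. The log2FC by limma-voom was 0.28, 0.32, 0.59 and 0.76 at the 4 rising doses of BI 456906, with FDR of 0.0084, 0.000408, 1.85e-08 and 3.32e-11, or a 1.70-fold rise at 30 nmol/kg. Per 10 nmol/kg Ahsg rose by a log2FC of 0.23 (SE 0.02, limma-voom FDR 7.66e-12). With only vehicle and the 3 nmol/kg group in the fit, the call at that dose was lost (FDR 0.109).

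Fetub, the neighbour of Ahsg, encodes fetuin-B, a related protease inhibitor needed for fertilisation. It held 358.4 to 452.1 TPM (median 392.1) in vehicle, 362.2 to 443.2 (407.2) at 30 nmol/kg of BI 456906 and 464.4 to 553.3 (484.6) at 100 nmol/kg of semaglutide. The semaglutide group lay wholly above vehicle, and the BI 456906 group lay within the vehicle range. Fetub rose at 100 nmol/kg of semaglutide (log2FC 0.23, SE 0.08, limma-voom FDR 0.0187), a call lost without vehicle library 45 (FDR 0.0657). At 30 nmol/kg of BI 456906 its log2FC was -0.07, with a 95% interval from -0.23 to 0.10.

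Lect2, which encodes a hepatokine that has been linked to insulin resistance in muscle, was the only member that fell with the dose of BI 456906. Vehicle livers held 135.1 to 186.5 TPM (median 165.8), and BI 456906 gave 93.6 to 143.4 (127.4) at 20 nmol/kg and 97.7 to 128.8 (111.0) at 30 nmol/kg. Semaglutide gave 83.6 to 113.0 TPM (median 106.9) at 20 nmol/kg and 67.98 to 133.1 (112.3) at 100 nmol/kg. The last 3 of these groups lay wholly below vehicle and the group given 20 nmol/kg of BI 456906 overlapped it. By limma-voom Lect2 fell by 0.51 on the log2 scale (FDR 0.00098) and by 0.65 (SE 0.13, FDR 3.02e-05) at 20 and 30 nmol/kg of BI 456906. It fell by 0.77 at either dose of semaglutide (limma-voom FDR 5.02e-06 and 5.67e-06).

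Enho encodes adropin, a secreted peptide linked to fuel choice, and had the largest fold change of the 9 in liver. Vehicle livers held 4.15 to 8.66 TPM (median 5.58), and BI 456906 gave 8.41 to 26.1 (11.5) at 3 nmol/kg, 12.9 to 37.5 (17.3) at 10, 18.1 to 40.6 (32.6) at 20 and 19.4 to 32.2 (24.5) at 30 nmol/kg. Semaglutide gave 13.8 to 36.5 TPM (median 21.7) at 20 nmol/kg and 18.4 to 35.5 (24.4) at 100 nmol/kg. All treated groups but the lowest dose lay wholly above vehicle. The log2FC by limma-voom was 2.31 (FDR 1.44e-07) at 20 nmol/kg and 2.01 (SE 0.31, FDR 9.64e-07), or 4.02-fold, at 30 nmol/kg of BI 456906. It was 1.78 (FDR 1.85e-05) and 2.01 (FDR 2.49e-06) by limma-voom at 20 and 100 nmol/kg of semaglutide. At 3 nmol/kg the log2FC of 1.05 (limma-voom FDR 0.032) lost its call without any of libraries 43, 45, 46, 48, 51, 52 or 53, with FDR up to 0.113.

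**Figure D3:**
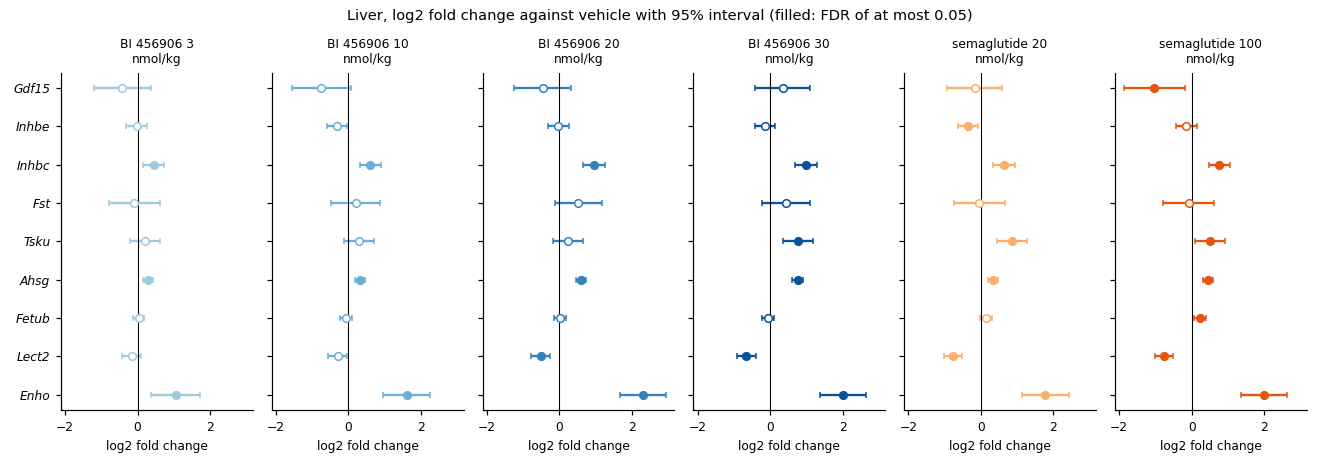
Liver log2FC against vehicle (limma-voom) of each of the 9 genes for the 4 doses of BI 456906 and the 2 doses of semaglutide, with 95% intervals. Filled points passed an FDR of 0.05. Enho lay farthest to the right, at 2.01 for 30 nmol/kg of BI 456906, and Lect2 lay below 0 for each compound, at -0.65 for that dose and -0.77 for either semaglutide dose.

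Setting the compounds side by side asks how dual GCGR and GLP-1R activation differed from GLP-1R activation alone. Doses are matched here in nmol/kg, which does not make exposure or GLP-1R activation equal, and neither was measured in these files. The study did measure plasma exposure and the activity of plasma at GLP-1R. It reported higher plasma levels of BI 456906 than of semaglutide at 20 nmol/kg near the end of dosing. The relative activity of BI 456906 at GLP-1R was reported as lower. At the matched dose of 20 nmol/kg, 1 of the 9 genes differed, where 2.42% of all genes tested differed. Ahsg was higher with BI 456906 (6784 to 7847 TPM) than with semaglutide (4987 to 6660), with no overlap and a log2 difference of 0.26 (95% interval 0.11 to 0.40, limma-voom FDR 0.0396). This call was lost without any of libraries 61, 62, 65, 66 or 74 to 77 and with only both groups in the fit, with FDR up to 0.143. The 8 other members did not pass. Their log2 differences of BI 456906 minus semaglutide were 0.53 (95% interval 0.05 to 1.01) for Enho, 0.32 (0.02 to 0.62) for Inhbc, 0.33 (0.04 to 0.62) for Inhbe and 0.26 (0.01 to 0.51) for Lect2. They were -0.63 (-1.05 to -0.21) for Tsku, -0.12 (-0.29 to 0.04) for Fetub, -0.28 (-1.08 to 0.52) for Gdf15 and 0.57 (-0.08 to 1.23) for Fst. Of these intervals, those of Fetub, Gdf15 and Fst took in 0.

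The highest doses were 30 nmol/kg of BI 456906 and 100 nmol/kg of semaglutide, which are not matched, so the following differences join compound and dose. At these doses 3 members differed, against 9.75% of all genes. Ahsg was higher with BI 456906 (log2 difference 0.32, limma-voom FDR 0.00311) and Fetub was lower (-0.30, FDR 0.0156), each with no overlap between groups. Gdf15 was higher (1.38, SE 0.41, limma-voom FDR 0.0269) with overlapping groups, and this call was lost without any of libraries 69, 72, 79, 80 or 83. Against 20 nmol/kg of semaglutide, 30 nmol/kg of BI 456906 differed in 1 member, Ahsg (0.43, limma-voom FDR 6.46e-05), where 13.6% of all genes differed.

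The other genes of the pathway were read from lists chosen by role. At 30 nmol/kg of BI 456906, 6 of the 11 receptor genes tested rose and 5 fell, where 58.8% of all genes changed, with a median log2FC of 0.39, beside -0.03 over all genes. Acvr2b and Acvr2a, which encode the type II activin receptors, rose by a log2FC of 1.10 (SE 0.23, limma-voom FDR 9.64e-05) and 0.80 (SE 0.09, FDR 1.38e-09), and Acvr2b went from 1.08 ± 0.47 to 2.23 ± 0.63 TPM (SD, n = 6). The TGF-beta type I receptor gene Tgfbr1 rose by 0.71. The type II receptor gene Tgfbr2 fell by 1.03 on the log2 scale, the activin type I receptor gene Acvr1b by 0.58 and Acvrl1, an endothelial type I receptor gene, by 0.41. The GDF15 receptor gene Gfral did not pass the filter. At 20 nmol/kg of semaglutide 6 receptor genes rose and 4 fell, beside 46.5% of all genes changed, and at 100 nmol/kg 6 rose and 5 fell, beside 48.2%. The named receptor genes moved the same way at 100 nmol/kg of semaglutide. Their log2FC there was 0.83 for Acvr2b, 0.80 for Acvr2a, 0.49 for Tgfbr1, -0.74 for Tgfbr2, -0.34 for Acvr1b and -0.50 for Acvrl1.

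Of the 13 other ligand genes tested at 30 nmol/kg of BI 456906, 3 rose and 5 fell (median log2FC -0.33), a share near the 58.8% of all genes that changed. The bone morphogenetic protein genes Bmp10, Bmp6 and Bmp2 rose by a log2FC of 0.96, 0.91 and 0.73, while Bmp7, Tgfb2 and Bmp4 fell by 1.18, 0.89 and 0.85. All moved the same way at 100 nmol/kg of semaglutide. There the log2FC was 0.55, 0.53 and 0.45 for the genes that rose and -0.71, -1.08 and -0.68 for those that fell. Bmp7 was also lower with BI 456906 than with semaglutide at the matched 20 nmol/kg (log2 difference -0.64, limma-voom FDR 0.0243). Of 7 other antagonist genes, 1 rose and 4 fell (median -0.48), beside 58.8% of all genes changed. Chrd, which encodes the BMP antagonist chordin, rose by a log2FC of 0.52. The follistatin-like gene Fstl1 and the latent TGF-beta binding protein genes Ltbp4 and Ltbp1 fell by 1.08, 0.72 and 0.64. At 100 nmol/kg of semaglutide the log2FC was 0.24 for Chrd, -0.86 for Fstl1 and -0.52 for Ltbp4. Ltbp1 did not pass there (-0.38, limma-voom FDR 0.164). Beside this list, transcripts of stellate cells and fibroblasts moved too: 6 of 8 such genes fell, where 58.8% of all genes changed in either direction. Their summed level was 175.3 to 349.2 TPM in vehicle and 151.1 to 230.1 TPM at 30 nmol/kg. This difference did not pass (adjusted exact permutation p 0.129), and the part of these transcripts in the result was not tested.

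Of 14 SMAD genes and SMAD targets, 7 rose and 1 fell (median log2FC 0.44), a share near the 58.8% of all genes that changed at 30 nmol/kg of BI 456906. Hamp, the hepcidin gene and a target of BMP signalling in hepatocytes, rose by a log2FC of 2.05 (SE 0.41, limma-voom FDR 4.68e-05), from 2202 ± 1024 to 8771 ± 2037 TPM (SD, n = 6). Skil, which encodes a SMAD corepressor, rose by 1.59 and Id1, a BMP target, by 1.35, from 13.2 ± 0.55 to 35.8 ± 7.26 TPM. Smad6, an inhibitory SMAD, fell by 0.47 on the log2 scale. These 4 genes moved the same way with semaglutide, at a log2FC of 1.40, 1.28, 1.07 and -0.47 at 100 nmol/kg.

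Of 17 other hepatokine genes, 5 rose and 4 fell (median log2FC 0.05), no larger a share than the 58.8% of all genes that changed. Igfbp1, an insulin-repressed binding protein of insulin-like growth factors, rose by a log2FC of 2.17 (SE 0.32, limma-voom FDR 3.69e-07), from 131.6 ± 45.2 to 589.4 ± 142.9 TPM (SD, n = 6). Hgf, the hepatocyte growth factor gene, rose by 1.35 and Igfbp2 by 1.13. These genes rose with semaglutide too. At 20 and 100 nmol/kg of semaglutide the log2FC was 1.995 and 1.561 for Igfbp1. It was 1.297 and 1.222 for Hgf, and 1.099 and 1.335 for Igfbp2. Between the compounds at the matched 20 nmol/kg, Igfbp1, Hgf and Igfbp2 did not differ past the threshold (limma-voom FDR 0.184, 0.608 and 0.897). Among those that fell, the selenium carrier gene Selenop fell by 0.44 on the log2 scale and Angptl6 by 0.39. At the same semaglutide doses the log2FC was -0.27 and -0.26 for Selenop and -0.50 and -0.55 for Angptl6. Of 12 genes of the stress response, which includes the pathway known to induce Gdf15, 5 rose and 1 fell (median 0.11), again no larger a share than the 58.8% of all genes. The asparagine synthetase gene Asns rose by a log2FC of 2.88 (SE 0.75, limma-voom FDR 0.00125), from 0.372 ± 0.33 to 3.19 ± 1.92 TPM, and the pseudokinase gene Trib3 fell by 1.28. Trib3 was lower with BI 456906 than with semaglutide at the matched 20 nmol/kg (log2 difference -0.71, limma-voom FDR 0.00472). Ppp1r15a and Cebpb, which rose by 0.50 and 0.40 against vehicle, did not differ past the threshold there (-0.30 and -0.43, FDR 0.0862 and 0.112). Asns did not pass there either (1.90, limma-voom FDR 0.187). Between the highest doses, which are not matched, Asns and Trib3 differed (2.48 and -0.74, limma-voom FDR 0.0185 and 0.00135). Against vehicle, Asns did not change at 20 or 100 nmol/kg of semaglutide (log2FC 0.30 and 0.40, limma-voom FDR 0.809 and 0.745).

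Likeness of pattern was read as Pearson's r of log2 values over the 42 liver libraries, which share treatment groups and depth, so it is a description. The most alike gene was Serpina1a for Ahsg (r = 0.920; 0.706 after group means were taken out), but Serpina1a belongs to a family of near-identical copies and its counts are uncertain. Cerkl was most like Inhbc (0.902 and 0.752 within groups), Slco2a1 most like Enho (0.917 and 0.734) and Pcbd1 most like Lect2 (0.892 and 0.789). Dcun1d3 was most like Tsku (0.870 and 0.803), Kng1 most like Fetub (0.836 and 0.845), Wdr73 most like Inhbe (0.759 and 0.724), Emp2 most like Fst (0.714 and 0.712) and Gadd45a most like Gdf15 (0.693 and 0.647). The next in order were Itih2 and Vtn for Ahsg, Hsdl2 and Slc22a5 for Inhbc, Hc and Psip1 for Enho, Cisd3 and Marc2 for Lect2, Nolc1 and Zfp623 for Tsku, Slc27a2 and Pabpc1 for Fetub, Tor3a and Plin2 for Inhbe, Cadm1 and Prdm16 for Fst, and Actg1 and Nr4a1 for Gdf15. Between members, r was 0.833 for Inhbc and Enho, 0.772 for Inhbc and Ahsg, 0.147 for the neighbours Inhbe and Inhbc (0.454 within groups) and 0.169 for the neighbours Ahsg and Fetub (0.644 within groups).

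In eWAT, the fat pad beside the epididymis, Fst was the member with the clearest change. Vehicle fat held 4.97 to 10.0 TPM (median 6.95), BI 456906 gave 12.2 to 23.8 (17.7) at 30 nmol/kg, and semaglutide gave 5.50 to 20.6 (13.8) at 20 nmol/kg and 9.93 to 19.8 (15.8) at 100 nmol/kg. The group given 30 nmol/kg lay wholly above vehicle, and both semaglutide groups overlapped it. Fst rose at 30 nmol/kg of BI 456906 (log2FC 1.28, SE 0.25, limma-voom FDR 0.000419) and at 100 nmol/kg of semaglutide (1.11, SE 0.25, FDR 0.00298), and these calls held in each of the 25 alternative fits, at a log2FC of 1.41 and 1.24 with hepatocyte transcripts as a covariate. At 20 nmol/kg of semaglutide it rose by 0.83 (limma-voom FDR 0.0455), a call lost in 14 of 25 alternatives, among them the fits without any of libraries 1, 2, 3, 5, 6, 31 to 34 or 36. At 20 nmol/kg of BI 456906 the log2FC was 0.71 (95% interval 0.18 to 1.24, limma-voom FDR 0.105). Beside the rise at 30 nmol/kg, summed mesothelial transcripts had a mean of 66.3 ± 47.6 TPM (SD, n = 6) in vehicle and 151.8 ± 57.2 TPM at that dose, and their part in the result was not tested.

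Gdf15 in eWAT held 10.6 to 29.1 TPM (median 20.6) in vehicle and 28.9 to 76.3 (44.7) at 100 nmol/kg of semaglutide, and the groups met only at their edges. It rose there (log2FC 1.21, SE 0.39, limma-voom FDR 0.0314), opposite in sign to its liver value at that dose; the difference between tissues was not tested at that dose. The call was lost without any of libraries 5, 6, 40 or 41, with hepatocyte transcripts as a covariate (FDR 0.205) and with libraries 2, 15, 27 and 42 left out (FDR 0.0596). At 30 nmol/kg of BI 456906 Gdf15 held 13.5 to 52.97 TPM (median 18.9) and its log2FC was 0.19 (95% interval -0.65 to 1.03).

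**Figure D4:**
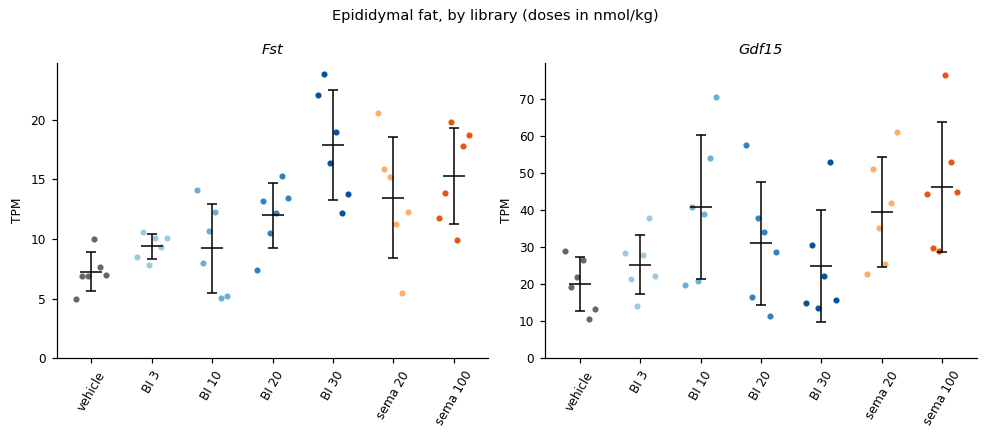
TPM of Fst and Gdf15 in eWAT (vertical axes) in each library (points) by group (horizontal axes), with bars for the group mean and SD (n = 6). All 6 Fst values at 30 nmol/kg of BI 456906, from 12.2 TPM up, lay above the highest vehicle value of 10.0 TPM.

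The levels of Inhbe, Inhbc, Ahsg, Fetub and Lect2 in eWAT went with those of hepatocyte transcripts. The sum of 11 hepatocyte transcripts, Alb among them, ran from 10.7 to 9089 TPM over the 42 eWAT libraries. It was 38.9 to 9089 TPM (median 2606) in vehicle, 32.97 to 1482 (156.5) at 30 nmol/kg of BI 456906, and 67.05 to 228.0 (145.6) and 10.7 to 1929 (144.1) at 20 and 100 nmol/kg of semaglutide. Over these libraries, which share groups, its Pearson's r with the log2 level was 0.948 for Ahsg, 0.935 for Inhbc, 0.917 for Inhbe, 0.907 for Lect2 and 0.815 for Fetub, and between 0.781 and 0.941 after group means were taken out. For Enho, Tsku, Fst and Gdf15 it was 0.431, 0.177, -0.207 and -0.369.

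Against that background, BI 456906 changed 0 of the 9 genes in eWAT at 3 nmol/kg (0.00539% of all genes), 0 at 10 nmol/kg (0.513%), 1 at 20 nmol/kg (4.27%) and 5 at 30 nmol/kg (23.9%) by limma-voom. Semaglutide changed 3 at 20 nmol/kg (6.33%) and 5 at 100 nmol/kg (14.9%). Inhbe held 0.02 to 3.60 TPM (median 1.19) in vehicle, from 1 to 185 reads, and 0 to 0.55 TPM (median 0.025) at 30 nmol/kg of BI 456906, from 0 to 30 reads. Its log2FC there was -4.26 (SE 1.34, limma-voom FDR 0.0191), and Lect2, Inhbc and Fetub had -3.90 (FDR 0.00931), -2.88 (FDR 0.0463) and -1.73 (FDR 0.035). All these groups overlapped vehicle. With hepatocyte transcripts as a covariate, an alternative chosen after seeing the data, the calls of Lect2, Inhbc and Fetub were lost and Inhbe had a log2FC of -1.06 (limma-voom FDR 0.0492). The part of the hepatocyte transcripts in these results was tested no further. In the same fit the number of changed members was 0 at 20 nmol/kg of BI 456906, 2 at 30 nmol/kg, and 0 and 1 at 20 and 100 nmol/kg of semaglutide. Of the 18536 genes tested, that fit called 855, 4261, 485 and 1099 in these comparisons, in the same order. Inhbc lost its call at 30 nmol/kg in 9 and Fetub in 8 of the 12 fits that left out a single library, among them those without vehicle libraries 2, 3, 4 or 6 or treated libraries 25, 26, 28 or 30. Ahsg, with a log2FC of -2.14 at 30 nmol/kg, did not pass (limma-voom FDR 0.0671).

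**Figure D5:**
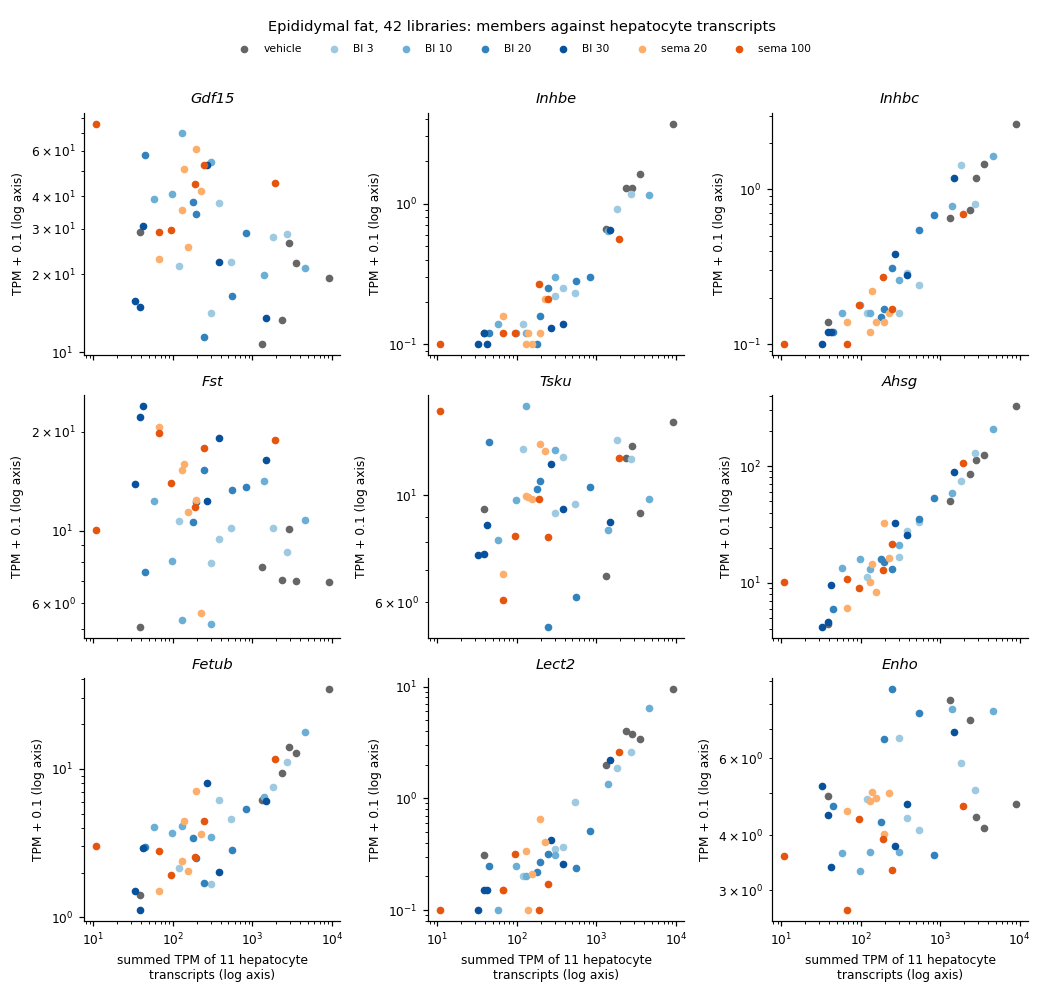
TPM + 0.1 of each of the 9 genes (vertical axes, log scale) against the summed TPM of 11 hepatocyte transcripts (horizontal axes, log scale) in each of the 42 eWAT libraries, coloured by group. Inhbe, Inhbc, Ahsg, Fetub and Lect2 rise with the hepatocyte sum, with r between 0.815 and 0.948.

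Tsku and Enho did not change in any eWAT comparison by limma-voom. In vehicle fat Tsku held 6.69 to 14.1 TPM (median 10.5) and Enho 4.05 to 8.05 (4.72). At 30 nmol/kg of BI 456906 the log2FC was -0.33 (95% interval -0.78 to 0.12) for Tsku and -0.26 (-0.69 to 0.18) for Enho. The response to 30 nmol/kg was set against that of liver in a model over all 84 libraries, in which 7 members differed, where 45.9% of all genes tested in both tissues did. The liver minus eWAT difference of log2FC was 2.16 (SE 0.44, limma-voom FDR 4.08e-05) for Enho and 0.98 (SE 0.31, FDR 0.0061) for Tsku. It was 4.02 for Inhbe, 3.76 for Inhbc, 3.14 for Lect2, 2.79 for Ahsg and 1.56 for Fetub, genes whose eWAT values moved with the hepatocyte transcripts, whose part in the differences was not tested. For Fst the difference was -0.96 (95% interval -1.85 to -0.07, limma-voom FDR 0.0711) and for Gdf15 it was 0.04 (-1.08 to 1.16).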

How the data were processed

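Libraries were prepared from total RNA with the SMART-Seq v4 kit, per the labels, but the study's methods describe poly(A) selection and a directional NEBNext kit, and the sources used here do not settle which made these files. The submitters' processing notes name STAR 2.5.2b, RSEM 1.3.0, featureCounts 1.5.1, FastQC 0.11.5 and the build GRCm38. The deposited tables hold TPM, computed by the authors, and a normalised signal, which the authors made by dividing read counts by 1 factor per library. Whole reads were recovered from that signal (tolerance 0.01), and count tests run on them were alternatives. The design had assumed counts. Columns with no sample numbered 0.

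Genes were fitted in R 4.3.3 with limma 3.58.1 (voom, TMM scaling and the expression filter of edgeR 4.0.16, pseudocount 0.5), all groups of a tissue in 1 model, with Benjamini-Hochberg FDR over all genes. DESeq2 1.42.0, edgeR's quasi-likelihood test, library size alone, other filters, log2(TPM + 1) and log2(TPM + 0.1), quality weights, the groups compared alone and leaving out each library were alternatives. The hepatocyte covariate, the left-out libraries 2, 15, 27 and 42 and the list without Trf were chosen after seeing the data. The fits were tested on simulated data. Nothing says that libraries came from separate extractions, so p-values measure the spread between these libraries.

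The members and lists were chosen with earlier results of these data known. Named were all 9 members, up to 3 rises and 3 falls per list with an FDR of at most 0.05 in liver at 30 nmol/kg, and the 3 genes of highest r per member. A gene that this rule named is not reported here.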

Additional observations from a re-analysis of the deposited data

Results flagged for a closer look

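The 126 sets of 6 libraries, formed by 9 genes in 14 groups, share libraries and are not independent. Dixon's 95% critical value for 6 samples flags about 5 percent of independent, normally distributed sets, so that share is no yardstick here. In 20 of the sets a single library stood apart from the other 5 by more than that critical value. In liver these were Gdf15 at 50.7 TPM in library 64 (20 nmol/kg of BI 456906; the others held 6.26 to 19.5), 53.9 TPM in library 77 (20 nmol/kg of semaglutide; 10.4 to 26.2) and 19.79 TPM in library 82 (100 nmol/kg of semaglutide; 6.46 to 11.0). Library 82 was also high for Fetub, at 553.3 TPM against 464.4 to 495.0. Library 74 (20 nmol/kg of semaglutide) was high for Tsku, at 216.0 TPM against 108.7 to 142.8, and low for Lect2, at 83.6 TPM against 105.5 to 113.0. Ahsg was low in library 55 (10 nmol/kg of BI 456906), at 5674 TPM against 6155 to 6239. Library 77 had the fewest reads of all liver libraries, 21676902. Next was library 81 (100 nmol/kg of semaglutide), with 30040261. The part of depth in these values was not tested.

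In eWAT the libraries that stood high were mostly 15, 27 and 42, which also had the highest sums of 11 hepatocyte transcripts in their groups, at 4560, 1482 and 1929 TPM, as did library 24 at 823.3 TPM. The part of these transcripts in the values below was not tested. Library 15 (10 nmol/kg of BI 456906) held 209.5 TPM of Ahsg, 17.5 TPM of Fetub and 6.30 TPM of Lect2. Library 27 (30 nmol/kg of BI 456906) held 0.55 TPM of Inhbe, 1.09 TPM of Inhbc, 88.7 TPM of Ahsg and 2.10 TPM of Lect2. Library 42 (100 nmol/kg of semaglutide) held 0.46 TPM of Inhbe, 0.59 TPM of Inhbc, 106.4 TPM of Ahsg, 11.6 TPM of Fetub and 2.51 TPM of Lect2. Library 24 (20 nmol/kg of BI 456906) held 0.41 TPM of Lect2.

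The response to 30 nmol/kg of BI 456906 differed between tissues by the interaction test of limma-voom for 7 genes, where 45.9% of all genes tested in both tissues differed. For Inhbe, Inhbc, Lect2, Ahsg and Fetub the eWAT values moved with the hepatocyte transcripts, whose part in the differences was not tested. The liver minus eWAT difference of the log2FC was 4.02 for Inhbe, 3.76 for Inhbc, 3.14 for Lect2, 2.79 for Ahsg, 2.16 for Enho, 1.56 for Fetub and 0.98 for Tsku.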

How the results depend on the processing

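Of the 38 calls of members in liver, 29 held in every alternative run and 0 reversed. Of 14 in eWAT, 2 held in every alternative, both of Fst, and 1 reversed. Of 7 between tissues, 4 held. The cause of the changes below was not tested. No paired analysis was possible because the labels do not say which liver and eWAT libraries came from the same mouse. At these depths Fst in liver and Inhbe, Inhbc and Lect2 in eWAT rest on few reads. The hepatocyte covariate and the left-out libraries were chosen after seeing the data.

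Some counts of changed members moved. The share of all genes is not given for most of these fits. A moved count there cannot be told from a change in how many genes the fit called. With only the groups compared, the count was 0 in liver at 3 nmol/kg of BI 456906 and 0 for the compounds at 20 nmol/kg, which gave 2 with quality weights. Against 20 nmol/kg of semaglutide, 30 nmol/kg of BI 456906 gave 2 with library size alone, either TPM scale or weights. In eWAT, weights gave 3 at 10 nmol/kg. At 20 nmol/kg the count was 3 with edgeR, 5 with DESeq2, 2 on either TPM scale, 4 with weights, and 0 with no filter, at least 10 in every library, only the groups compared or the covariate. At 30 nmol/kg it was 3 with no filter and 2 with at least 10 in every library, only the groups compared or the covariate. Semaglutide at 20 nmol/kg gave 6 with edgeR, DESeq2 or weights, 1 with at least 10 in every library, and 0 with only the groups compared or the covariate. At 100 nmol/kg it gave 8 with DESeq2, 3 with no filter, 2 with at least 10 in every library or only the groups compared, and 1 with the covariate. The tissue difference gave 4 with at least 10 in every library.

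Other values changed sign, all but that of Inhbc at 30 nmol/kg in eWAT without a call. In liver, Inhbe became 0.049 on either TPM scale and 0.079 with weights at 3 nmol/kg of BI 456906. At 20 nmol/kg it became 0.0054 with DESeq2, 0.094 and 0.095 on the TPM scales and 0.049 with weights, and its slope became 0.00022 and 0.00010 on the TPM scales. Fetub became -0.00027 and -0.011 with library size alone at 3 and 20 nmol/kg, 0.058 on either TPM scale and 0.013 with weights at 10, and 0.014 on either TPM scale and 0.043 with weights at 30. Its slope became 0.0052 on either TPM scale and 0.0042 with weights. Gdf15 became 0.022 with DESeq2 at 20 nmol/kg of semaglutide. Between the highest doses, Inhbe became -0.0042 with edgeR, -0.0034 with DESeq2, -0.017 with library size alone and -0.010 with no filter, and Enho became -0.014, -0.014, -0.017 and -0.010.

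In eWAT, Tsku became -0.037 with weights at 3 nmol/kg and -0.0022, -0.0016 and -0.059 on the TPM scales and with weights at 10. Enho became -0.029 with weights and -0.012 with the libraries left out at 20 nmol/kg, and Gdf15 became -0.11 with weights at 30. With the covariate, Ahsg became 0.019, 0.29 and 0.35 at 3, 10 and 30 nmol/kg of BI 456906 and 0.058 and 0.29 at 20 and 100 nmol/kg of semaglutide. Inhbc became 0.22, 0.33 and 0.53 at 10, 20 and 30 nmol/kg, Enho 0.0069 at 30 nmol/kg and 0.021 at 20 nmol/kg of semaglutide, and Gdf15 -0.13 at 30. The tissue difference of Gdf15 became -0.067 with edgeR and -0.031 with DESeq2. On mean log2(TPM + 1), marker lists whose sums had the other sign gave 0.033 for macrophages, -0.055 and -0.047 for endothelium and 0.012 for mesothelium in liver. In eWAT they gave -0.060 and -0.010 for adipocytes, -0.26, -0.046, -0.46 and -0.33 for macrophages and -0.033 for endothelium.

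Leaving out 1 library at a time gave member counts of 1 to 3, 3 to 5 and 4 to 7 in liver at 3 and 10 nmol/kg of BI 456906 and 100 nmol/kg of semaglutide, and 0 to 1 for the compounds at 20 nmol/kg. In eWAT it gave 0 to 2, 0 to 5 and 3 to 6 at 10, 20 and 30 nmol/kg, and 0 to 5 and 2 to 7 for semaglutide at 20 and 100 nmol/kg. The shares of all genes called in these fits are not given here, so the counts cannot be set against them. In liver, log2FC ranges that crossed 0 were -0.058 to 0.037 for Inhbe, -0.24 to 0.062 for Fst and -0.019 to 0.079 for Fetub at 3 nmol/kg, -0.14 to 0.063 for Inhbe and -0.024 to 0.080 for Fetub at 20 nmol/kg, and -0.18 to 0.15 and -0.22 to 0.074 for Fst at 20 and 100 nmol/kg of semaglutide. Between compounds they were -0.11 to 0.074 for Inhbe and -0.094 to 0.11 for Enho (30 against 100 nmol/kg), -0.17 to 0.021 for Tsku (30 against 20) and -0.63 to 0.041 for Gdf15 (20 against 20). In eWAT they were -0.057 to 0.15 for Tsku and -0.21 to 0.0096 for Enho at 3 nmol/kg, -0.11 to 0.099 for Tsku at 10, -0.081 to 0.16 for Enho at 20, -0.062 to 0.33 for Gdf15 at 30, and -0.21 to 0.028 for Tsku at 20 nmol/kg of semaglutide. The tissue difference of Gdf15 ran from -0.14 to 0.45.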
